A study of Mus musculus with 5 samples.

Results

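The 10 genes described here, Twist1, Tcf21, Foxf1, Foxf2, Prrx1, Nkx3-2, Barx1, Meox1, Osr1 and Tbx3, encode transcription factors known from the splanchnic and pancreatic mesenchyme. They were measured in dorsal pancreatic buds of C57BL/6J mouse embryos at E10.5. All probe sets that the platform annotation assigns to exactly 1 of these symbols were taken, which gave 22 of 45037 probe sets for 10 of 18193 genes. Buds were compared between Ptf1a null mutant embryos (3 arrays) and Ptf1a heterozygote embryos (2 arrays), so the heterozygotes also carried a mutant allele and no wild-type bud was analysed here. Ptf1a is a basic helix-loop-helix factor required for pancreas formation, and which part of the gene was altered is not stated in the labels. Each array received RNA of 3 pooled buds that had been stripped of mesenchyme by mechanical dissection and amplified through 2 rounds from the poly(A) tail. The labels do not tie pools to litters, so p-values cover only the spread between pools. In pooled tissue, fewer cells of a type and less RNA per cell cannot be told apart.

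At this stage the pancreatic bud is an epithelial outgrowth of the gut tube that sits in a coat of splanchnic mesenchyme, which supplies growth signals and is needed for the bud to grow. Some of the factors listed here help to specify that coat and its regions: forkhead factors answer Hedgehog ligand from gut epithelium, while several homeobox factors divide the mesenchyme of stomach, spleen and pancreas. Others are better known from other mesoderm. Transcripts of such factors in a stripped bud can come from mesenchyme left behind by the dissection, so the values are given array by array beside those of other mesenchymal genes.

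As a check of genotype, Ptf1a itself had log2 signals of 5.21, 6.07 and 5.00 in null buds, against 7.10 and 7.33 in heterozygote buds (log2 change -1.79, limma adjusted p = 0.651), so every null array lay below both heterozygotes. Without the position of the altered part, it is not known whether this probe set can test the labels. Median deposited intensity was 13.7 to 16.4 on null arrays, against 14.4 to 17.5 on heterozygote arrays. Correlations across probe sets were 0.849 to 0.854 between arrays of 1 genotype and 0.838 to 0.862 between arrays of different genotypes.

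The main result is that no factor passed the test. In limma, with p-values adjusted over the whole array by the Benjamini-Hochberg method, 0 of the 22 probe sets passed a threshold of 0.05 in the untrended fit, against a background of 0% of 45037 (lowest adjusted p among the 22, 0.570). In a fit whose prior variance follows signal level (the trended fit), 0 of 22 passed, against 0.0178% of all probe sets (lowest adjusted p 0.976). At an unadjusted p under 0.05 there were 3 of 22 in the untrended fit, against 5.52%, and 1 of 22 in the trended fit, against 4.93%. With each gene represented by its probe set of highest mean signal, 8 of 10 factors had a higher mean in null buds, against 49.1% of all genes. The median log2 change was 0.57 over the 10 factors and -0.012 over all genes. That direction leaned on 1 array: without heterozygote replicate 2 the count was 5 of 10 and the median 0.21. At 4 of the 10 genes, Foxf1, Nkx3-2, Meox1 and Osr1, all null arrays lay above both heterozygote arrays, against 9.82% of all genes, and at 0 of 10 all null arrays lay below, against 10.1%. Over all 22 probe sets these counts were 9, against 9.9% of all probe sets, and 0, against 10.1%.

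Most of the factors were dim. Each array's background level was taken from its Bacillus subtilis control probe sets and lay between 3.03 and 3.29 on the log2 scale, with 60.9% to 65.2% of probe sets above it. Barx1, Foxf1 and Tbx3 were above it on all 5 arrays, which makes 30% of the factors, against 57.0% of all genes. Twist1 was above it on no array, and the other 6 factors on some. Over all 22 probe sets, 3 were above background on every array, 14 on some and 5 on none.

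**Figure D1:**
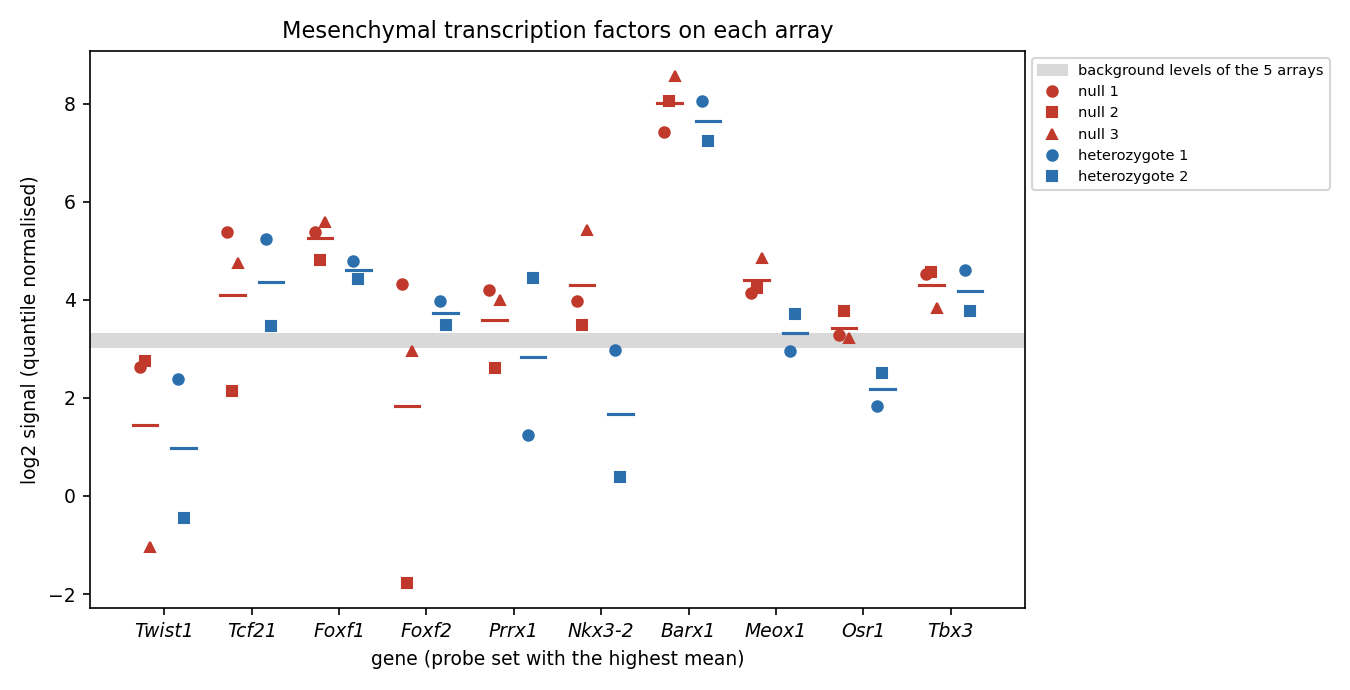
Log2 signal (vertical axis, quantile normalised) of each factor's brightest probe set on each array, with null arrays in red left of heterozygote arrays in blue, horizontal bars for group means and a grey band for the background levels of the 5 arrays (3.03 to 3.29). Barx1 lay far above the band on every array, Twist1 below it on every array, and null and heterozygote points are fully separated at Foxf1, Nkx3-2, Meox1 and Osr1.

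Promoter sequence was looked up for all 10 genes in a set of 32851 promoters on GRCm38.p6. Foxf1, Meox1, Osr1 and Tbx3 were not in that set, although the IDs of all 10 genes matched RefSeq symbols. The set held promoters of Twist1, Tcf21, Foxf2, Prrx1, Nkx3-2 and Barx1. In the 250 bases before the start site, the median GC content of these 6 promoters was 65.6% (47.6% for Prrx1 to 85.6% for Barx1), against 52.4% over 32851 promoters. The E-box CANNTG, the site class of basic helix-loop-helix factors such as Twist1, Tcf21 and Ptf1a, was searched on both strands and was found in 2 of the 6, Foxf2 and Nkx3-2, against 66.2% of all promoters. Both hold the form CAGCTG, found in 13.0% of all promoters. The 2 promoters are shown because they are the ones with an E-box. Capitals mark the E-box.
Nkx3-2, chr5:41764221-41764470, minus strand: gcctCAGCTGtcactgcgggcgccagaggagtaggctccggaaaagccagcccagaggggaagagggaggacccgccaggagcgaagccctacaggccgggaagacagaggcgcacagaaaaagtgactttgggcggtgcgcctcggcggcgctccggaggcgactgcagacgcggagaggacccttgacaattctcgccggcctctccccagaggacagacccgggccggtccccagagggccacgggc
Foxf2, chr13:31625566-31625815, plus strand: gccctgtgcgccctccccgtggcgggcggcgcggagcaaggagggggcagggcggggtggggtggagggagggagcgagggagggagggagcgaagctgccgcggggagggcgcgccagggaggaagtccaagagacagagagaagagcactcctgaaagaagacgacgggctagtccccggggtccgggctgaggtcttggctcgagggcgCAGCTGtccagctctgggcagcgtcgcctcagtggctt
None of the 6 windows held the letters TAAACA (forkhead core, in 12.0% of all promoters), TAAGTG (NK homeodomain, 7.92%), AGGTGTGA (T-box, 1.12%) or GACCACCCA (Gli, 0.225%) on either strand. TATAAA was found in 1 of the 6, Twist1, against 12.4% of all promoters. A match or its lack describes these letters in this window and says nothing of binding.

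Foxf1 and Foxf2 encode forkhead factors of the gut mesenchyme, where both act downstream of Hedgehog signalling. On the log2 scale, the brighter Foxf1 probe set (1434939_at) had 5.37, 4.82 and 5.59 on null replicates 1 to 3, against 4.78 and 4.43 on heterozygote replicates 1 and 2. All null arrays lay above both heterozygotes, but the lowest null array exceeded the higher heterozygote by less than the range within either group. The mean was 5.26 ± 0.40 (SD, n = 3) in null buds and 4.61 ± 0.25 (SD, n = 2) in heterozygote buds, a log2 change of 0.65 (SE 0.41, 95% interval -0.42 to 1.73) with limma adjusted p = 0.991. The second probe set, 1423013_at, was at 4.73, 2.88 and 3.73 in null buds, against 2.76 and 1.29 in heterozygote buds. It was above background on 2 null arrays and on 0 heterozygote arrays, so the mean null signal was at least 1.54-fold higher (adjusted p = 0.942). The 95% interval of its log2 change was -0.21 to 3.73 and includes 0. An "at least" fold sets the mean of the bright group against that of the dim group after values under background are raised to it. It takes no account of the spread between arrays and is not a lower confidence limit.

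Foxf2 did not share this direction. On the log2 scale, its brighter probe set (1418220_at) had 4.32, -1.76 and 2.97 in null buds, against 3.98 and 3.48 in heterozygote buds. Both heterozygotes were above background and 1 of 3 null arrays was, yet null replicate 1 was the highest of all 5 arrays, so the groups overlapped. The log2 change of -1.89 (SE 1.89, adjusted p = 0.998) rested on null replicate 2, without which it was -0.089. Without null replicate 1 it was -3.11. No array was above background at the other Foxf2 probe set, 1447562_at.

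Twist1 and Tcf21 encode basic helix-loop-helix factors. Twist1, which maintains the mesenchymal state in many embryonic tissues, had log2 signals of 2.64, 2.75 and -1.04 in null buds, against 2.39 and -0.45 in heterozygote buds. All 5 values were below background and no fold can be given. Tcf21, which is needed in the mesenchyme of lung, kidney and spleen, had 5.39, 2.14 and 4.75 in null buds, against 5.24 and 3.47 in heterozygote buds. Null replicate 2 was below background and the other 4 arrays above it, with null replicate 1 and heterozygote replicate 1 close together at the top. The log2 change was -0.26 (SE 1.17, 95% interval -3.29 to 2.77, adjusted p = 0.999), and it was 0.73 without null replicate 2 and 0.62 without heterozygote replicate 1. Its other probe set, 1458887_at, kept the same low array, at 4.16, 2.67 and 3.92 in null buds, against 3.89 and 3.30 in heterozygote buds (log2 change -0.0084).

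Nkx3-2 (also called Bapx1) encodes an NK homeodomain factor of the splenic and pancreatic mesenchyme that is needed to part the spleen from the pancreas. It had log2 signals of 3.98, 3.50 and 5.43 in null buds, against 2.98 and 0.39 in heterozygote buds. All 3 null arrays were above background and both heterozygotes below it. The null mean was 4.30 ± 1.01 (SD, n = 3), against a heterozygote mean of 1.68 ± 1.83 (SD, n = 2), and the signal was at least 2.21-fold higher in null buds. The measured log2 change was 2.62 (SE 1.01, 95% interval 0.016 to 5.23), with adjusted p = 0.904 untrended and 0.976 trended. It rests on heterozygote values under background and was 1.14 with values raised to background. Without heterozygote replicate 2 it was 1.31 and without heterozygote replicate 1 it was 3.90.

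Barx1, a homeobox gene that marks stomach mesenchyme next to the dorsal pancreas, was the factor whose signal stood clearest of background. Its log2 signals were 7.42, 8.06 and 8.56 in null buds, against 8.06 and 7.25 in heterozygote buds. The groups overlapped throughout: null replicate 2 and heterozygote replicate 1 had almost the same value. Means were 8.02 ± 0.57 (SD, n = 3) in null buds and 7.66 ± 0.58 (SD, n = 2) in heterozygote buds, so the log2 change of 0.36 (SE 0.52, 95% interval -0.99 to 1.71, adjusted p = 0.999) was smaller than the SD within either group. It was -0.050 without heterozygote replicate 2.

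Meox1 encodes a homeodomain factor best known from somites. It had log2 signals of 4.14, 4.23 and 4.85 in null buds, against 2.96 and 3.71 in heterozygote buds. The null arrays were all above background and above both heterozygotes, of which replicate 1 was below background. Means were 4.41 ± 0.38 (SD, n = 3) in null buds and 3.33 ± 0.53 (SD, n = 2) in heterozygote buds, a log2 change of 1.07 (SE 0.45, 95% interval -0.097 to 2.24) with adjusted p = 0.935. With 1 array left out it was 0.69 to 1.44.

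Osr1, a zinc finger gene of intermediate mesoderm and foregut mesenchyme, had log2 signals of 3.28, 3.77 and 3.22 in null buds, against 1.84 and 2.51 in heterozygote buds. The null arrays lay just above background and the heterozygotes below it, so the null signal was at least 1.20-fold higher. The measured log2 change was 1.24 (SE 0.42, 95% interval 0.16 to 2.33), with adjusted p = 0.832 untrended and 0.977 trended. Raising every value to at least its array's background cut it to 0.26.

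Prrx1 encodes a paired-related homeodomain factor of limb and facial mesenchyme and had 6 probe sets, none above background on all arrays. All 6 had a higher mean in null buds, with log2 changes of 0.29 to 2.11, and at 3 of them all null arrays lay above both heterozygotes, against 9.9% of all probe sets. Of these 3, 1458004_at was above background on no array, and 1439774_at and 1425526_a_at on 1 null array each, so their order rests on values below background. The brightest, 1432129_a_at, was not one of these 3. It had 4.19, 2.61 and 3.99 in null buds, against 1.24 and 4.45 in heterozygote buds, so that heterozygote replicates 1 and 2 were the lowest and the highest of the 5 arrays. Its log2 change of 0.75 (SE 1.11, adjusted p = 0.999) was -0.85 without heterozygote replicate 1. At 1425526_a_at, log2 signals were 2.41, 4.37 and 2.76 in null buds, against 2.39 and -0.25 in heterozygote buds. Null replicate 2, low at the brightest probe set, was the highest here and the sole array above background. These 6 probe sets belong to 1 gene and are not independent.

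Tbx3 encodes a T-box factor active in limb and visceral mesenchyme and also in the liver bud. Its brightest probe set, 1448029_at, had 4.53, 4.57 and 3.83 in null buds, against 4.61 and 3.77 in heterozygote buds. The arrays formed a high set of 3 and a low set of 2, each with both genotypes, and the log2 change was 0.12 (SE 0.48, 95% interval -1.11 to 1.35, adjusted p = 0.999). It was -0.010 without null replicate 2 and -0.30 without heterozygote replicate 2. Probe set 1445757_at differed from it, with 2.71, 4.07 and 3.28 in null buds, against 1.28 and 0.97 in heterozygote buds. Its log2 change of 2.23 (SE 0.52, 95% interval 0.88 to 3.58) had the lowest p of the 22 (0.0083, adjusted 0.570), but 2 null arrays and 0 heterozygote arrays were above background, which leaves at least 1.14-fold. The remaining 3 probe sets had log2 changes of 0.39, 0.20 and -0.87 with overlapping groups.

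**Figure D2:**
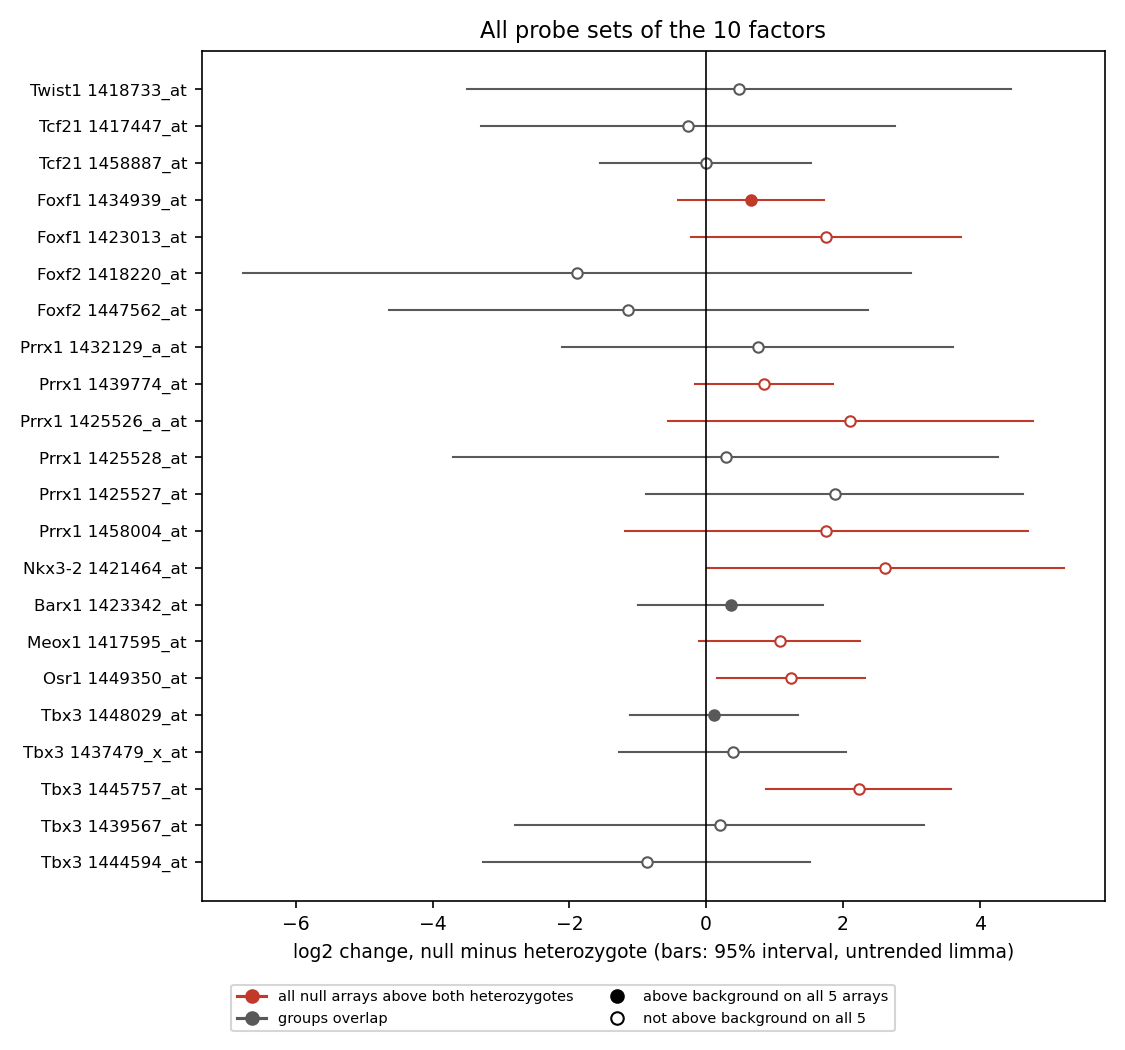
Log2 change (horizontal axis, null minus heterozygote) with its 95% interval from the untrended limma fit for each of the 22 probe sets, in red where all null arrays lay above both heterozygotes and filled where all 5 arrays were above background. The 3 filled points, at Foxf1, Barx1 and Tbx3, have changes of 0.65, 0.36 and 0.12, and the intervals of 19 of the 22 probe sets include 0.

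Arrays of the same genotype differed widely. Heterozygote replicate 2 was the lowest of the 5 arrays for Foxf1, Nkx3-2, Barx1 and Tbx3, and the highest for Prrx1. Heterozygote replicate 1 was the lowest for Prrx1, Meox1 and Osr1, and the highest for Tbx3. Of the 10 factors, 5 were above background on heterozygote replicate 1 and 7 on heterozygote replicate 2. Null replicate 2 was the lowest for Tcf21 and Foxf2, and the highest for Twist1 and Osr1. Null replicate 3 was the highest for Foxf1, Nkx3-2, Barx1 and Meox1, and the lowest for Twist1. Between the heterozygotes the median difference over the 10 factors was -0.66 (replicate 2 minus replicate 1, with 7 of 10 lower on replicate 2), against 0.018 over all genes. Relative to each gene's mean over the arrays, the factors' median was 0.55, 0.22 and 0.57 on null replicates 1 to 3, against -0.013 and -0.53 on heterozygote replicates 1 and 2. The signs of Foxf1, Foxf2, Nkx3-2, Meox1 and Osr1 were the same with any 1 array left out, which for the 4 with separated groups is fixed by that separation.

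**Figure D3:**
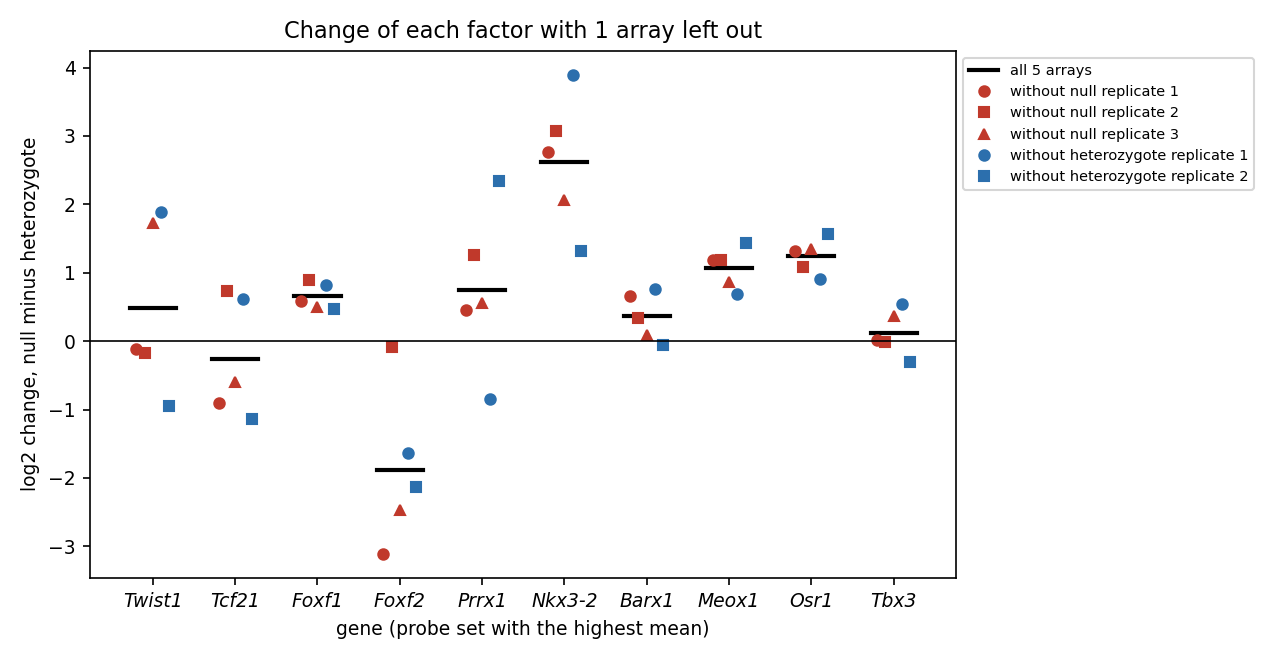
Log2 change (vertical axis, null minus heterozygote) of each factor's brightest probe set with all 5 arrays (black bar) and with each array left out (red for a null array, blue for a heterozygote array). Twist1, Tcf21, Prrx1, Barx1 and Tbx3 cross 0 when an array is left out, and Foxf2 comes to -0.089 without null replicate 2.

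Genes of mesenchymal matrix and contractile fibres are described together, and none passed the test in either limma fit. Of 23 measured, 17 had a higher mean in null buds and 6 a lower one, against 49.1% of all genes higher. At 8 of the 23 all null arrays lay above both heterozygotes, against 9.82% of all genes, and at 1, Tagln, all lay below, against 10.1%. The median log2 change was 0.43, which was 0.16 with values raised to background and 0.26 without null replicate 1. Their summed linear signal was 4980 to 5071 on null arrays, against 3726 to 3897 on heterozygote arrays. Fn1, which encodes fibronectin, averaged 10.78 ± 0.27 (SD, n = 3) in null buds and 10.05 ± 0.38 (SD, n = 2) in heterozygote buds on the log2 scale, with a log2 change of 0.74 (adjusted p = 0.980). Fn1 made up a large part of each sum, and without it the summed ranges of the genotypes overlapped. Postn, a matrix protein of fibroblasts, had a log2 change of 1.10, Col1a1, a chain of type I collagen, 0.68, and Pdgfra, a growth factor receptor of mesenchymal cells, 0.55. At all 4 of these genes, named for having the lowest p among those above background on all arrays, every null array was above both heterozygotes. The 5 contractile genes, named after their values were seen, did not share a direction. Acta2, smooth muscle actin, had a log2 change of 1.67, the muscle intermediate filament gene Des -1.21 and the smooth muscle actin gene Actg2 -0.76. Actg2 was above background on only 1 null and 1 heterozygote array, and Acta2 and Des on 4 arrays each. The groups overlapped at Des and Actg2. Tagln, an actin-binding protein of smooth muscle, was below background on all null arrays and on heterozygote replicate 2. It was at least 1.41-fold lower in null buds by the means, which rests on heterozygote replicate 1. The 95% interval of its log2 change was -3.69 to 0.38. Cnn1, a calponin, was below background on all 5 arrays. Among them, 12 matrix and contractile genes were above background on all arrays, while Cnn1 and Thy1, a surface protein of fibroblasts, were above it on none. By array the list's median relative to gene means was 0.21, -0.058 and 0.26 on null replicates 1 to 3, against -0.16 and -0.28 on heterozygote replicates 1 and 2. As for the 10 factors, null replicate 3 was highest, null replicate 2 the lowest of the nulls, and heterozygote replicate 2 the lowest of all. This order was not particular to mesenchymal genes. Neural crest and glia genes had it too (0.35, 0.31 and 0.45 on null replicates 1 to 3, against -0.11 and -0.48). Other mesenchymal transcription factors did not (-0.099, 0.090 and 0.15, against 0.15 and -0.055). The part of mesenchyme left after dissection in the factors' values was not tested.

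Other mesenchymal transcription factors showed less of a direction. Of 27 measured, 17 were higher and 10 lower in null buds, with a median log2 change of 0.14, which was -0.081 without heterozygote replicate 2 and -0.019 without null replicate 3. Of the 27, 15 were above background on all arrays. Snai2, a repressor of epithelial genes, had overlapping groups and a log2 change of 1.07 (SE 0.67, adjusted p = 0.991), and Nr2f2, Zeb1 and Nr2f1 had 0.41, 0.35 and 0.29. Summed signal was 2057 to 2439 on null arrays, against 1807 to 2199 on heterozygote arrays, so the ranges overlapped.

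Genes of the Hedgehog response and of mesenchymal signals went both ways. Of 20 measured, 8 were higher and 12 lower in null buds, with a median log2 change of -0.15 that was 0.24 without heterozygote replicate 1 and 0.069 without null replicate 2. At 4 of the 20 all null arrays lay above both heterozygotes, against 9.82% of all genes, and at 3 all lay below, against 10.1%. Ptch1, the Hedgehog receptor and itself a target of the pathway, was at 9.10 ± 0.08 (SD, n = 3) in null buds and 8.66 ± 0.26 (SD, n = 2) in heterozygote buds, with all null arrays above both heterozygotes (log2 change 0.43, adjusted p = 0.991). The Hedgehog co-receptor Boc had a log2 change of 0.76 and the co-receptor Gas1 one of -1.24 (adjusted p = 0.986 and 0.937). Gli3, a transcription factor of the pathway, had -0.26. Hhip and Gli1, of the same list and named after their values were seen, went against the direction of Ptch1. Hhip had a log2 change of -2.07, with all null arrays below background and below both heterozygotes. Heterozygote replicate 2 was below background as well. Hhip was at least 1.11-fold lower in null buds by the means, which rests on heterozygote replicate 1. Gli1 had -0.70 with overlapping groups.

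Markers of other cells that a dissected bud could hold are given as values beside the factors. The bud epithelium was present throughout: 20 of 21 measured epithelial genes were above background on all arrays, all but Rab25. Of the 21, 5 were higher and 16 lower in null buds (median log2 change -0.17, against 0.064 with heterozygote replicate 2 left out and -0.41 with replicate 1 left out), and their summed signal was 6002 to 7498 on null arrays, against 5180 to 6420 on heterozygote arrays. The summed ranges overlapped, and the keratins Krt8 and Krt18 made up most of each sum. Krt18 and Krt19, keratins of simple epithelia, had log2 changes of 0.67 and 0.92, and Cldn3 and Cldn4, tight junction claudins, -1.32 and -0.48. Relative to gene means the epithelial median was highest on heterozygote replicate 2 (0.27), where the factors were lowest, and was -0.21 on both heterozygote replicate 1 and null replicate 3.

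Erythroid genes were lower in null buds at 8 of 9 measured (median log2 change -0.81, which was -0.51 without heterozygote replicate 2), with summed signal of 7968 to 8877 on null arrays, against 9557 to 12007 on heterozygote arrays. Ermap, a red cell membrane protein, had a log2 change of -2.23, and the embryonic globins Hba-x and Hbb-bh1 -1.31 and -0.81 (adjusted p = 0.485, 0.779 and 0.958). Slc4a1, the red cell anion exchanger, had -1.36. Hbb-y, Klf1 and Gata1, of the same list, were named after their values were seen. The embryonic globin Hbb-y had a log2 change of -0.063, Klf1 -0.15 and Gata1 0.21, all with overlapping groups. Neural crest and glia genes were higher in null buds at 6 of 8 (median log2 change 0.52, against 0.80 with heterozygote replicate 1 left out and 0.34 with replicate 2 left out), with summed signal of 420.9 to 475.8 on null arrays, against 265.4 to 333.1 on heterozygote arrays. Ednrb, an endothelin receptor of migrating crest cells, had a log2 change of 1.18 (adjusted p = 0.768), Sox10, a crest and glia factor, 0.57, the receptor gene Ret 0.46 and the neurotrophin receptor gene Ngfr 0.14. Both of these lists differed by genotype in summed signal without overlap, and their part in the factors' values was not tested.

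Endothelial genes were high on 1 array of each genotype. Of 13 measured, 7 were higher and 6 lower, with medians relative to gene means of 0.68 on null replicate 3 and 0.56 on heterozygote replicate 1, and of -0.46 and -0.29 on null replicates 1 and 2 and -0.20 on heterozygote replicate 2. Summed signal was 321.4 to 657.6 on null arrays, against 376.2 to 590.7 on heterozygote arrays. Kdr and Eng, receptors of endothelial cells, had log2 changes of -0.66 and -1.25, and Erg and Cldn5, an endothelial transcription factor and claudin, 0.34 and 0.58. Somite genes were near background, with Pax1, Uncx and Myog above it on no array, and summed signal of 44.7 to 54.4 on null arrays, against 38.5 to 48.6 on heterozygote arrays. Of the 8, 3 were higher and 5 lower, and Tcf15, the one above background on all arrays, had a log2 change of 0.082. Meox1 was above background on 4 arrays, with a mean log2 signal of 3.98 over the 5 arrays, against 4.01 for Tcf15. The rest of the somite genes were mostly below background. A somite part in the Meox1 signal was not tested. Of 8 mesothelial genes, 2 were higher and 6 lower, Gpm6a alone was above background on all arrays (log2 change 0.33), Msln was above it on none, and summed signal was 83.8 to 104.6 on null arrays, against 61.4 to 125.1 on heterozygote arrays.

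**Figure D4:**
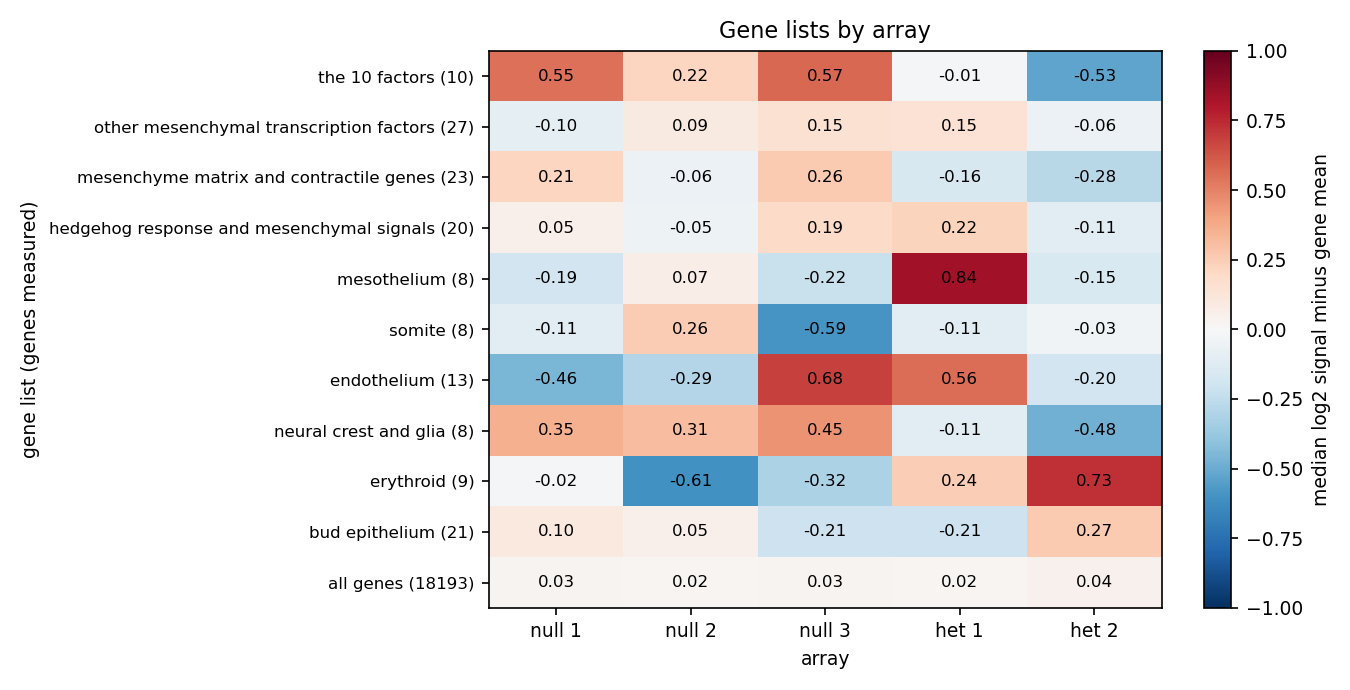
Median log2 signal relative to each gene's mean over the 5 arrays (colour and printed value) for the 10 factors and other gene lists (rows, number measured in brackets) on each array (columns, null arrays left of heterozygote arrays, het standing for heterozygote). The 10 factors run from 0.57 on null replicate 3 to -0.53 on heterozygote replicate 2, and all genes stay between 0.018 and 0.040.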

How the data were processed

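RNA of dorsal pancreatic buds was measured on 5 arrays, 3 from null and 2 from heterozygote pools. The authors deposited 1 linear signal intensity per probe set and array (45101 probe sets). The submitters' processing notes name GCOS and RMA without a version or role, and the background correction is not stated. Array medians differed by up to 0.354 in log2. Intensities were put on a log2 scale with no offset and quantile normalised, and 64 control probe sets were then left out, leaving 45037. Of these, in the platform annotation, 34945 probe sets had 1 symbol, 932 several and 9160 none; the IDs of all 10 genes matched current RefSeq symbols. A gene was represented by its probe set of highest mean. The background level of an array was the 95th percentile of its 27 Bacillus subtilis controls; the labels do not say whether those transcripts were added.

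Null was compared with heterozygote by limma 3.58.1 in R 4.3.3 (lmFit and eBayes, genotype as the sole term, two-sided, Benjamini-Hochberg over all 45037 probe sets, threshold 0.05). The fit was run on simulated data with noise equal for every probe set and smaller than the pooled SD of the null arrays. Changes were planted only in probe sets above the median signal. That run therefore does not show how the fit behaves on dim, noisy probe sets such as those of most factors. The smallest exact permutation p of 3 against 2 arrays is 0.1, so none is given. All 22 probe sets of the 10 genes are described, and from each of 9 other lists the 4 genes of lowest p among those above background on every array, or fewer where fewer were. The members, lists and tests were chosen with earlier results of these data known. Alternatives were a trended robust prior, median centring, no normalisation, an offset of 16, values raised to background, a filter on dim probe sets, the mean of a gene's probe sets, a replicate block, and leaving out each array. The number of arrays limits the precision.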

Additional observations from a re-analysis of the deposited data

How the results depend on the processing

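No probe set of the 10 factors passed in any of the 18 alternative settings in which it was tested. Over all probe sets the count of calls was 0 in the untrended fit, 8 in the trended fit and, in the trended fit, 0 (without null replicate 1) to 11 (without heterozygote replicate 1) with an array left out, with 1 without null replicate 2 or 3 and 4 without heterozygote replicate 2. The factors' median log2 change of 0.57 was 0.24 with the offset of 16, 0.19 with values raised to background, and 0.21 (without heterozygote replicate 2) to 0.81 (without null replicate 2) with an array left out, where the count of factors higher in null was 5 to 8. With values raised to background, Tcf21 turned to 0.080; Twist1 came to -0.060, which is only the difference between the arrays' background levels, since all 5 of its values were below them. With an array left out, log2 changes ran from -0.95 to 1.89 for Twist1, -1.14 to 0.73 for Tcf21, -3.11 to -0.089 for Foxf2, -0.85 to 2.35 for Prrx1, -0.050 to 0.76 for Barx1 and -0.30 to 0.54 for Tbx3. Within these ranges the sign also turned for Twist1 without null replicates 1 and 2 (-0.11 and -0.18), for Tcf21 without heterozygote replicate 1 (0.62) and for Tbx3 without null replicate 2 (-0.010). The trended fit alters only the variances, so its log2 changes repeat those of the untrended fit and cannot test a sign. Of 179 values of single factors under the alternatives, with these repeats counted, 159 kept their sign. With the replicate number as a block over the arrays numbered 1 and 2, the median was 0.52 and 8 of 10 factors were higher in null buds, with 0 calls. Same-numbered arrays did not deviate together from their group means (correlations of -0.017 and 0.0080), so the number is not taken to pair them. Dim signal limits Twist1, Osr1, Foxf2 and most probe sets of Prrx1 and Tbx3, whose values lie near or below background.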
